A study of Homo sapiens with 42 samples.

Results

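Transcript levels of 7 genes were followed across 5 genotypes of HAP1 cells with and without buthionine sulfoximine (BSO): NQO1, OSGIN1, PIR, CBR1, CBR3, EPHX1 and EPHX2. The 7 were listed by name as detoxification genes known to be induced by the transcription factor NRF2, among 20515 entries of the expression table that carry a gene symbol. All 7 had a row. Each was compared between BSO and media within replicate pairs, and between each knockout and wild-type cells in media, with a term for the label set and also against wild-type cells of the same label set alone. The filter on low values, a mean normalized read count of at least 10 over all libraries, left 14331 genes for testing. All 7 passed it, EPHX2 only through the libraries of a single line (neil2 line 11).

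NRF2, encoded by NFE2L2, is held in the cytoplasm and marked for degradation by KEAP1 in resting cells. Electrophiles and oxidants modify cysteines of KEAP1, after which NRF2 accumulates, pairs with a small MAF protein and binds antioxidant response elements of its target genes. NQO1, which reduces quinones to hydroquinones, is the most widely used readout of this pathway. BSO inhibits glutamate-cysteine ligase, the enzyme of the first step of glutathione synthesis.

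HAP1 is an adherent, near-haploid human cell line derived from a chronic myeloid leukaemia line. The 42 RNA-seq libraries came from unmodified cells (wt) and from cells deficient for 1 of the NEIL DNA glycosylases, which excise oxidized bases, or for NEIL1, NEIL2 and NEIL3 at once (neil123). Each genotype was given 200 µM BSO or medium alone for 48 h, starting after 4 h, and each treatment had 7 libraries of wt, 3 each of neil1 and of neil2, and 4 each of neil3 and of neil123. The replicate names form 2 label sets: unlettered names (wt 1.1, 1.3 and p1, all neil1 and all neil2) and names ending in A or B (wt 1.1 and 1.3, all neil3 and all neil123). Knockout names such as rep11.1 and rep11.2 share a stem that is called a line here. In wt the name without its final letter (1.1, 1.3 or p1) is the line. The labels do not say whether libraries of a line were separate cultures, so p-values measure the spread between libraries, which may be partly technical, and how the knockouts were made was not given in the sources used here.

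The libraries held 26.8 M to 30.7 M reads on named genes. In media, NEIL2 reads were lower in neil2 (by limma, log2 change -0.85, SE 0.09, adjusted p = 4.32e-08) and in neil123 (-0.79, SE 0.08, adjusted p = 3.18e-09). NEIL3 reads were lower in neil123 (-0.61, SE 0.09, adjusted p = 2.13e-05), and NEIL1 reads were higher in neil2 (0.71, SE 0.16, adjusted p = 0.00506). NEIL1 reads did not differ in the libraries labelled neil1 (0.13, SE 0.16, adjusted p = 0.842), NEIL3 reads missed the threshold in those labelled neil3 (-0.34, SE 0.09, adjusted p = 0.0982), and the levels overlapped those of wt. NEIL1 reads were not lower in the libraries labelled neil123 either (0.17, SE 0.14, adjusted p = 0.516; 842 to 1072 against 774 to 974.7 in lettered wt). The neil1 and neil3 labels, and NEIL1 in neil123, are thus not checked by transcript levels, and these names stand for the libraries so labelled. Of the mesenchymal markers all 5 were present, with a summed level of 18217 to 35046 per library. Of 10 blood markers 6 were in the table, PTPRC, SPN and GATA1 with means under 10, and the set summed to 123 to 1267. Liver markers were largely absent (4 of 5 in the table, all with means under 10, sum 0.996 to 24.5). CDH1, the defining epithelial marker, had a mean under 10, while the 4 epithelial markers in the table summed to 1817 to 11010. In bulk RNA, fewer cells of a type and less RNA per cell cannot be told apart.

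Per kilobase of exon, and averaged over the 7 wt media libraries, NQO1 stood highest with 871 normalized counts (SD 205). EPHX1 followed with 601 (SD 58.3), PIR with 533 (SD 54.0) and CBR1 with 511 (SD 29.3). From EPHX1 to CBR1, neighbours in this order differed by less than the sum of their SDs. OSGIN1 had 168 (SD 59.9), CBR3 50.8 (SD 14.6) and EPHX2 2.21 (SD 1.16). With BSO, NQO1 reached 2051 per kilobase, PIR 788, EPHX1 707, CBR1 540, OSGIN1 447, CBR3 54.6 and EPHX2 2.96. The values by library are shown in the plot of levels.

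**Figure D1:**
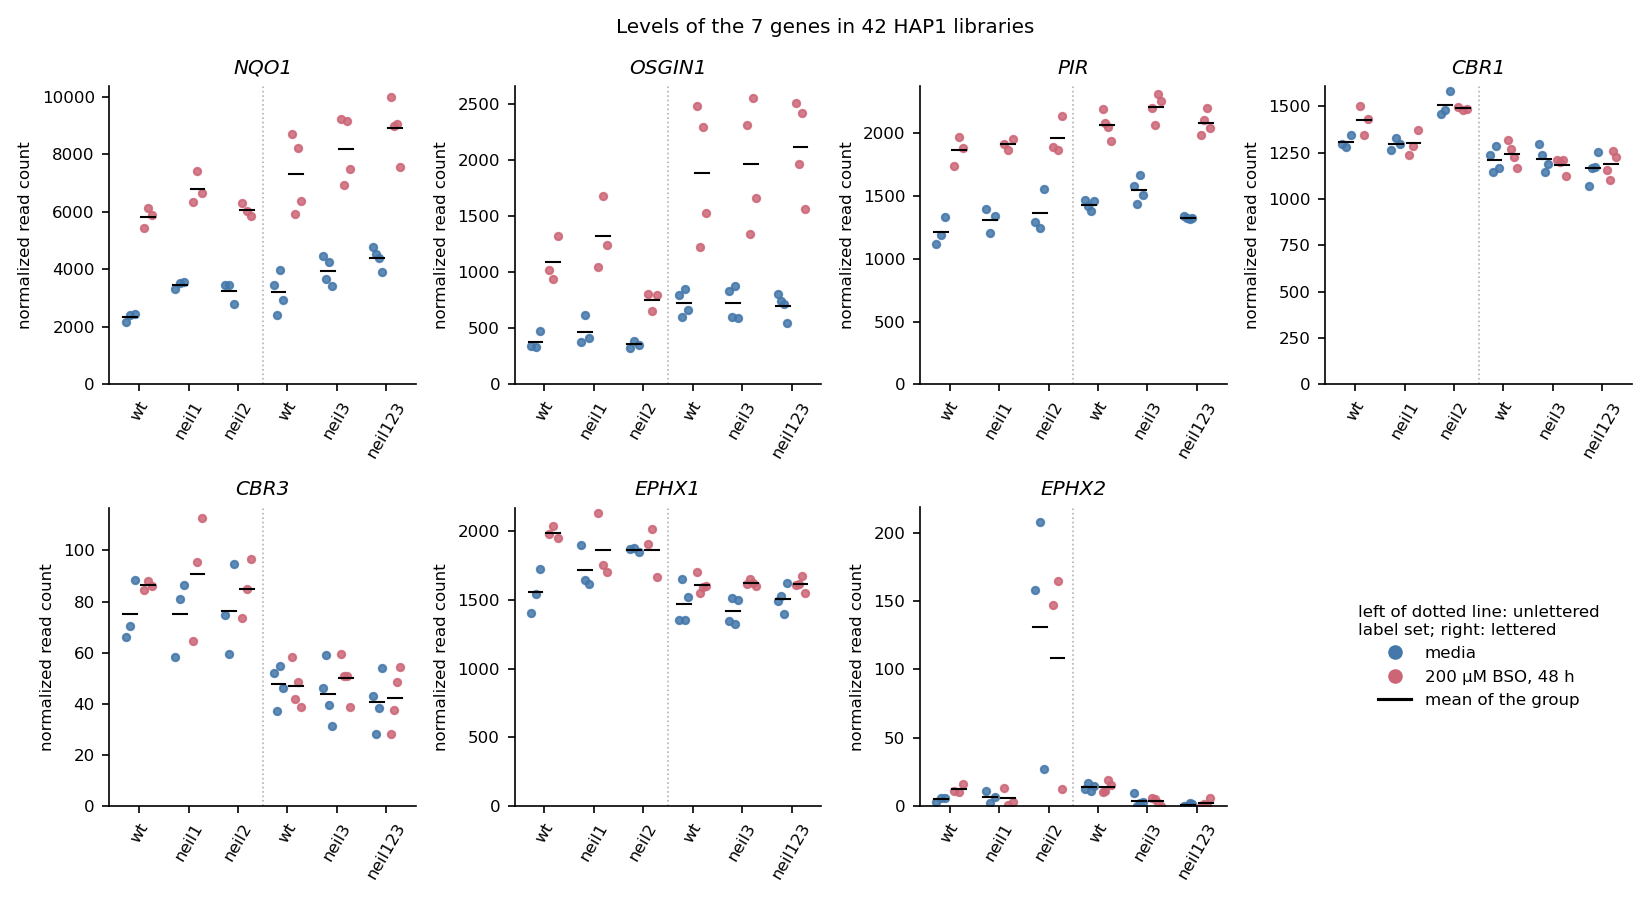
Normalized read count (vertical axis, from 0) of each gene in each of the 42 libraries, by genotype, in media (blue) and with 200 µM BSO for 48 h (red); black bars are group means, and the dotted line separates the unlettered label set (left) from the lettered one (right). The BSO points of NQO1, OSGIN1 and PIR sat above the media points of the same genotype and label set, while EPHX2 was high in the neil2 libraries rep11.1 and rep11.2, between 147 and 208.0.

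NQO1 (NAD(P)H quinone dehydrogenase 1, ENSG00000181019) lies on chromosome 16, 69706996-69726951, minus strand, in GENCODE v29 on GRCh38. OSGIN1, an oxidative stress induced growth inhibitor, lies on the plus strand of the same chromosome at 83948282-83966332 (ENSG00000140961). PIR encodes pirin, an iron-binding nuclear protein with quercetinase activity, on chromosome X at 15384799-15493564, minus strand (ENSG00000087842). CBR1 and CBR3, which encode NADPH-dependent carbonyl reductases, are neighbours on the plus strand of chromosome 21, at 36069941-36073166 (ENSG00000159228) and 36134912-36146566 (ENSG00000159231). EPHX1, the microsomal epoxide hydrolase, is on chromosome 1 at 225810092-225845563, plus strand (ENSG00000143819). Whether reads were counted by strand was not given in the sources used here: of CBR3's exon bases 42.2% are shared with the antisense gene CBR3-AS1, of NQO1's 17.7% with the antisense AC092115.2 and of CBR1's 18.9% with AP000688.1, and of OSGIN1's 13.9% with AC009119.2 on the same strand, and none of these 4 has a row under that symbol. EPHX1 shares 1.12% of its exon bases with TMEM63A, and the overlaps of PIR with BMX and of CBR1 with SETD4 hold no shared exon bases.

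Windows around RefSeq gene starts (GRCh38.p14, 250 bases before to 50 after each start) were searched for 5 of the 7, with 3 windows for EPHX1. No window was searched for CBR3 or EPHX2, and whether RefSeq holds a start for them was not established here. The 4 windows below are shown because NQO1, OSGIN1 and PIR rose together with BSO, and CBR1 did not. Capitals mark matches, on either strand, to the core of the antioxidant response element (TGACNNNGC) or the AP-1 element (TGACTCA); the 2 can overlap.
NQO1 (16, minus strand): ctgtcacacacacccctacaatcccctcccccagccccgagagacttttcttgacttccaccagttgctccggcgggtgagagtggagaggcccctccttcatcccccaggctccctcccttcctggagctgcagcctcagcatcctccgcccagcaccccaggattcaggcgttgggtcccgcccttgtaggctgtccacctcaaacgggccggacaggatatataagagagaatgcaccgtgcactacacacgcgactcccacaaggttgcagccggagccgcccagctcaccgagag
OSGIN1 (16, plus strand): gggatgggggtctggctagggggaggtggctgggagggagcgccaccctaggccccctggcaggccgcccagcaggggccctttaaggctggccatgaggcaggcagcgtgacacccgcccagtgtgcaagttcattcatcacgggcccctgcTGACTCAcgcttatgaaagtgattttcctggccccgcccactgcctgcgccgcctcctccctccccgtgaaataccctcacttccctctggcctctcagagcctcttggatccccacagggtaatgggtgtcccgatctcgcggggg
PIR (X, minus strand): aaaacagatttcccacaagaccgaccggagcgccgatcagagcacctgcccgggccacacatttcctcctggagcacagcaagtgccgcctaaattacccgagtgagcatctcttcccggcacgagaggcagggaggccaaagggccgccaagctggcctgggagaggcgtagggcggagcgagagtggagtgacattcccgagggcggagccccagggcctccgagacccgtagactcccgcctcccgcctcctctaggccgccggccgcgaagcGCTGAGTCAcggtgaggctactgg
CBR1 (21, plus strand): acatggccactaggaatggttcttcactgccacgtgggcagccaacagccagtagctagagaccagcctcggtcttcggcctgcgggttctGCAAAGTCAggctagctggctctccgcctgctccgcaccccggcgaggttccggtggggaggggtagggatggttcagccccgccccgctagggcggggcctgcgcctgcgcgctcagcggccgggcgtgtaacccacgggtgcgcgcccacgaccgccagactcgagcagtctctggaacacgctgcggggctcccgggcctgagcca
Positions count from the RefSeq start of each window, whose first base is 1. These starts can differ from the gene bounds given above. The OSGIN1 window (83952990-83953289) and the second EPHX1 window (225825104-225825403) lie inside those bounds. The PIR window held an antioxidant response element core on the reverse strand at bases 27 to 35, overlapping an AP-1 element at 29 to 35. OSGIN1 held an AP-1 element 97 to 91 bases before its RefSeq start and no match to the core. CBR1 held the core on the reverse strand 159 to 151 bases before its RefSeq start. The second EPHX1 window held the core 78 to 70 bases before its RefSeq start. No match to either motif stood in the NQO1 window, and bases more than 250 before a start were not searched. Of the 35116 such windows that were searched, 13.3% held TGACNNNGC and 4.95% held TGACTCA. The core of the element bound by the aryl hydrocarbon receptor, spelled GCGTG, stood in 36.5% of the searched windows. It stood in those of NQO1, OSGIN1, CBR1 and the second of EPHX1. A match is a run of letters and not a measured binding site.

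BSO raised NQO1, OSGIN1 and PIR in wt cells, by 2.37-fold, 2.65-fold and 1.48-fold on the log2(normalized count + 1) scale, and each of the 3 was higher with BSO in 21 of 21 replicate pairs. EPHX1 rose by 1.17-fold in wt and was higher in 6 of 7 wt pairs. CBR1, CBR3 and EPHX2 did not pass the test in any genotype. The members called (adjusted p under 0.05, limma with Benjamini-Hochberg adjustment over 14331 genes) numbered 4 of 7 in wt, where 13.5% of all genes were called. They numbered 3 of 7 in neil1 (1.14% of all genes), 2 of 7 in neil2 (0.154%), 3 of 7 in neil3 (6.27%) and 3 of 7 in neil123 (1.6%), all of them increases. Replicates of the same name deviated together, and with the replicate name as a block OSGIN1 was also called in neil2 (5.76% of all genes called) and EPHX1 in neil3 (20.4%).

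NQO1 in media stood at 2177 (wt 1.1), 2406 (1.3) and 2455 (p1) normalized counts in the unlettered wt libraries. The lettered wt media libraries held 3460 (1.1A), 3984 (1.3A), 2416 (1.1B) and 2943 (1.3B). With BSO, the unlettered wt libraries held 5452, 6143 and 5889, and the lettered ones 8691, 8229, 5936 and 6369, in the same order. Every wt BSO library exceeded every wt media library. Within pairs the ratio ranged from 2.07 (1.3A) to 2.55 (1.3), and the fitted change was 1.25 on the log2 scale (SE 0.09, adjusted p = 7.20e-12, limma).

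In the libraries labelled neil1, NQO1 went from 3313 (rep12), 3540 (rep13.1) and 3549 (rep13.2) in media to 6335, 7433 and 6649 with BSO. In neil2 it went from 3454 (rep11.1), 3453 (rep11.2) and 2803 (rep12) to 6315, 6044 and 5846. In those labelled neil3 the media values were 4450 (1A), 4242 (2A), 3657 (1B) and 3408 (2B), and the BSO values 9221, 9163, 6948 and 7479. No BSO library of these genotypes fell into the range of its own media libraries. The neil123 libraries rose from 4761 (1A), 4394 (2A), 4529 (1B) and 3902 (2B) to 9987, 9069, 8978 and 7575, again without overlap. By limma the log2 changes were 0.97 in neil1 (SE 0.14, adjusted p = 0.000138), 0.91 in neil2 (SE 0.14, adjusted p = 0.000638), 1.06 in neil3 (SE 0.12, adjusted p = 5.12e-07) and 1.01 in neil123 (SE 0.12, adjusted p = 1.14e-06). Leaving out a line ended the call in neil1 and neil2: without neil1 line 13 the change was 0.94 (adjusted p = 0.189), without neil2 line 11 it was 1.06 (adjusted p = 0.272), each from a single library per treatment that is assumed to vary like the other groups, and without neil2 line 12 it was 0.84 (adjusted p = 0.0851).

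**Figure D2:**
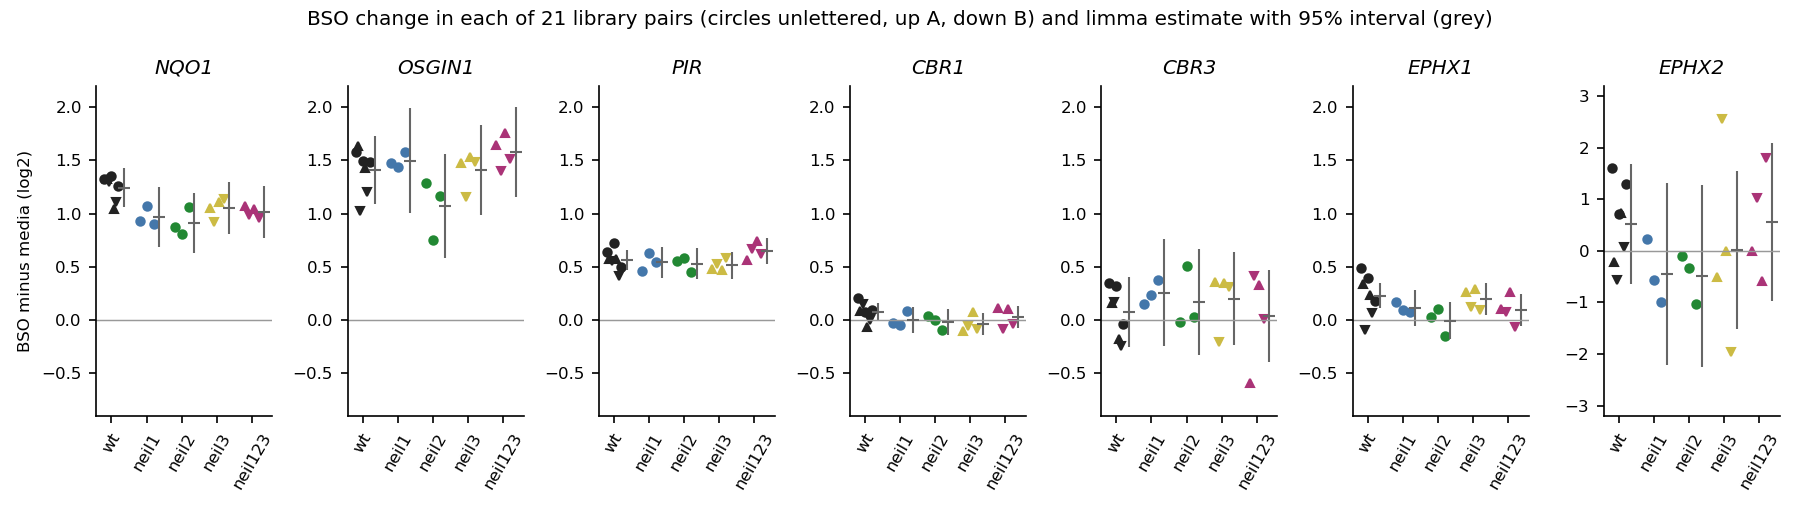
Log2 difference between BSO and media for each of the 21 replicate pairs (circles, unlettered names; upward triangles, names ending in A; downward triangles, names ending in B) and the limma estimate with its 95% interval in grey, by genotype; EPHX2 has a wider axis. NQO1, OSGIN1 and PIR lie above 0 in 21 of 21 pairs, EPHX1 in 18, CBR3 in 15, CBR1 in 11 and EPHX2 in 9.

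OSGIN1 had the largest fitted BSO change of the 7 in each genotype. In wt media it stood at 340.3, 333 and 472 in the unlettered libraries 1.1, 1.3 and p1, and at 796.5 (1.1A), 851 (1.3A), 603.5 (1.1B) and 665.5 (1.3B) in the lettered ones. The BSO libraries of the same names held 1021, 941.5 and 1323, then 2479, 2295, 1229 and 1531. The wt groups did not overlap. In neil1-labelled cells it rose from 374, 621 and 416 (rep12, rep13.1 and rep13.2) to 1044, 1683 and 1242, and in neil2 from 328, 389 and 353 (rep11.1, rep11.2 and rep12) to 802, 657.5 and 793. Libraries labelled neil3 went from 831 (1A), 878 (2A), 603 (1B) and 595 (2B) to 2313, 2549, 1343 and 1664, and neil123 libraries from 803, 715, 741 and 547 to 2512, 2418, 1961 and 1567. The neil2 BSO libraries lay below the unlettered wt BSO libraries without overlap, whereas their media libraries overlapped those of wt.

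The fitted OSGIN1 change was 1.41 in wt (SE 0.16, adjusted p = 7.22e-08), 1.50 in neil1 (SE 0.24, adjusted p = 0.000581), 1.41 in neil3 (SE 0.21, adjusted p = 2.38e-05) and 1.58 in neil123 (SE 0.21, adjusted p = 9.37e-06), by limma. In neil2 the value was 1.07 (SE 0.24) with an adjusted p of 0.0522, and with the replicate name as a block the adjusted p was 3.93e-08. The ratio within pairs ran from 1.69 (neil2 rep11.2) to 3.38 (neil123 2A).

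PIR moved least among these 3, and with the smallest spread. Its wt media libraries held 1117 (1.1), 1191 (1.3), 1334 (p1), 1470 (1.1A), 1379 (1.3A), 1418 (1.1B) and 1458 (1.3B). The wt BSO libraries held 1736, 1970, 1881, 2192, 2047, 2085 and 1938, all above the highest media value. Media values of 1395, 1205 and 1338 in neil1-labelled cells became 1918, 1863 and 1954, and 1290, 1244 and 1558 in neil2 became 1892, 1863 and 2134. In neil3-labelled cells 1578 (1A), 1668 (2A), 1436 (1B) and 1504 (2B) became 2202, 2316, 2065 and 2258, and the 4 neil123 media libraries, between 1318 and 1341, became 1988 to 2203. The log2 change was 0.57 in wt (SE 0.05, adjusted p = 1.58e-10), 0.54 in neil1 (SE 0.07, adjusted p = 3.88e-05), 0.53 in neil2 (SE 0.07, adjusted p = 8.98e-05), 0.52 in neil3 (SE 0.06, adjusted p = 1.12e-06) and 0.65 in neil123 (SE 0.06, adjusted p = 1.76e-08), by limma. The pair ratios spanned 1.33 to 1.67. Without neil1 line 13, or without neil2 line 11, each leaving single libraries, PIR was no longer called (adjusted p = 0.208 and 0.327), nor was OSGIN1 in neil1 without line 13 (adjusted p = 0.208).

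EPHX1, which hydrates epoxides at the endoplasmic reticulum, rose in wt by 0.23 on the log2 scale (SE 0.06, adjusted p = 0.00427, limma). Its media range in wt was 1351 to 1722 (median 1524) and its BSO range 1547 to 2037 (median 1703), which overlap. The unlettered wt libraries separated, with 1406, 1546 and 1722 in media and 1977, 2037 and 1952 with BSO. Leaving out the libraries of wt line 1.1 or of wt line 1.3 ended the call (0.22, adjusted p = 0.0607, and 0.23, adjusted p = 0.104). The changes in the knockouts were 0.11 (neil1), -0.01 (neil2), 0.20 (neil3, adjusted p = 0.118, and 0.0323 with the replicate block) and 0.10 (neil123), with SEs of 0.07 to 0.09.

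CBR1 and CBR3 reduce carbonyls, including those of quinones and of anthracyclines. CBR1 lay between 1070 and 1584 in all 42 libraries, and its BSO change lay between -0.04 (neil3) and 0.08 (wt, 95% interval -0.00 to 0.16, adjusted p = 0.191). CBR3 lay between 28.0 and 113. Its BSO change lay between 0.04 (neil123) and 0.26 (neil1), and in wt it was 0.08 with a 95% interval of -0.25 to 0.41 (adjusted p = 0.828). A CBR3 change below 0.41 in wt was not resolved with these libraries, at 27.95 to 112.6 counts.

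Differences in the BSO change between each knockout and wt were tested as an interaction. None of the 7 was called, and none of 14331 genes was called by limma in any of the 4 tests (0% each), with 135, 662, 378 and 496 genes at an unadjusted p under 0.05 in neil1, neil2, neil3 and neil123. On whole reads edgeR called 0 genes in each of the 4, and DESeq2 called 0, 0, 0 and 1. The NQO1 differences were -0.28 in neil1 (SE 0.17, 95% interval -0.61 to 0.06), -0.33 in neil2 (SE 0.17, -0.67 to 0.00), -0.19 in neil3 (SE 0.15, -0.50 to 0.12) and -0.23 in neil123 (SE 0.15, -0.54 to 0.07). These 4 comparisons share the wt libraries. With the replicate block the neil2 difference was called (SE 0.06, adjusted p = 0.0305, 0.216% of all genes called), and those of neil1, neil3 and neil123 were not (adjusted p = 0.999, 0.534 and 0.171). Within the unlettered set, the wt pair ratios were 2.50, 2.55 and 2.40, the neil1 ones 1.91, 2.10 and 1.87 and the neil2 ones 1.83, 1.75 and 2.09. The lettered wt ratios, 2.51 (1.1A), 2.46 (1.1B), 2.07 (1.3A) and 2.16 (1.3B), overlapped those of neil3 (1.90 to 2.19) and neil123 (1.94 to 2.10). For EPHX1 in neil2 the difference was -0.24 (SE 0.10, unadjusted p = 0.0264, adjusted p = 0.9999), the single member with an unadjusted p under 0.05.

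**Figure D3:**
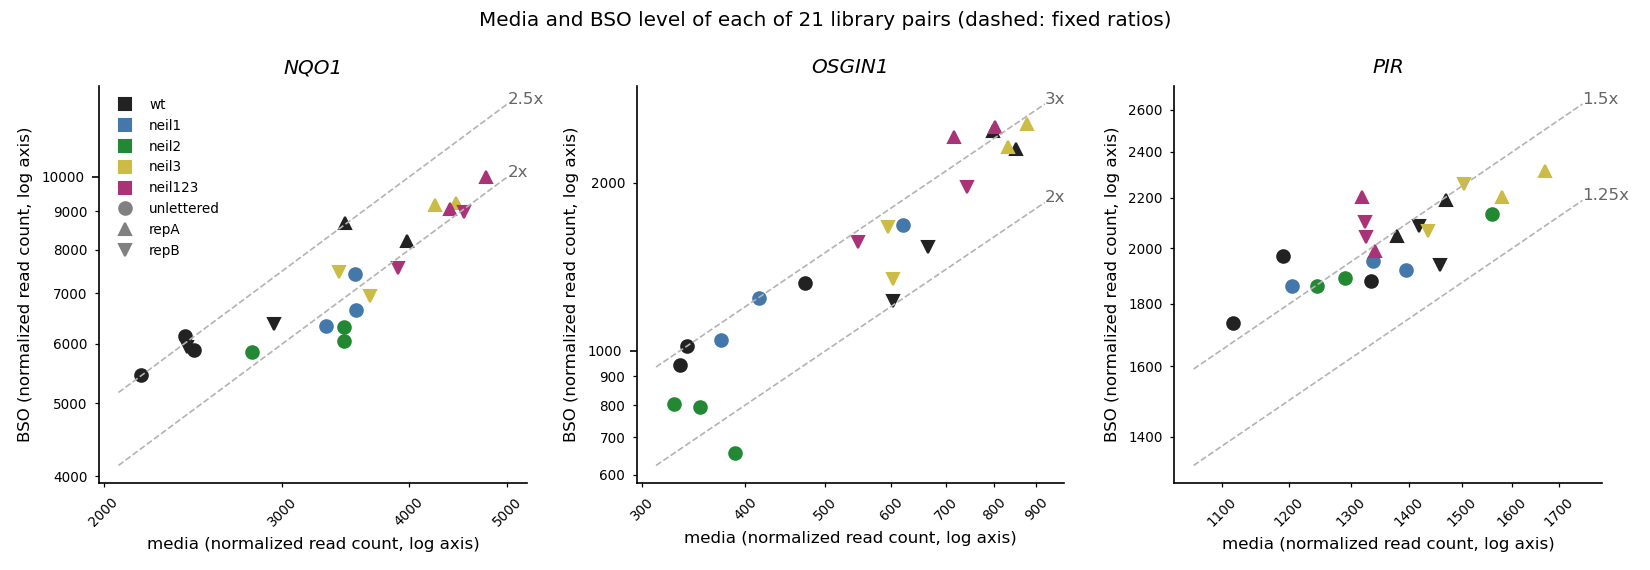
Level with BSO (vertical) against level in media (horizontal) of NQO1, OSGIN1 and PIR in the 21 replicate pairs, both in normalized read counts on log axes, coloured by genotype, with circles for unlettered names and triangles for names ending in A (up) or B (down); dashed lines mark fixed ratios. For NQO1 the unlettered wt pairs lie near the upper line, at ratios of 2.40 to 2.55, and the neil1 and neil2 pairs lie to their right at 1.75 to 2.10.

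In media, the comparison with wt asks whether the knockouts changed the basal level of these genes. NQO1 was higher in neil123 (log2 change 0.50, SE 0.11, adjusted p = 0.00341, limma) and in neil2 (0.43, SE 0.13, adjusted p = 0.0291). In neil1 the value was 0.53 (SE 0.13, adjusted p = 0.0539) and in neil3 0.34 (SE 0.11, adjusted p = 0.272). Both passed in a fit with a term for the final letter of the replicate name (adjusted p = 0.000715 and 0.0113, limma). In that fit 0.558% and 0.698% of all genes were called. A replicate block cannot serve here, since each pair lies within a genotype, and neil1 names have no letter. Against wt of its own label set alone, NQO1 was 0.56 in neil1 (adjusted p = 0.0655), 0.46 in neil2 (adjusted p = 0.0306), 0.32 in neil3 (adjusted p = 0.586) and 0.48 in neil123 (adjusted p = 0.0123). The comparisons share the wt libraries. The members called numbered 0 of 7 in neil1 (0.349% of all genes called), 3 of 7 in neil2 (10.5%), 0 of 7 in neil3 (0.579%) and 2 of 7 in neil123 (7.67%). Without EPHX2, which entered the test through neil2 line 11, they numbered 2 in neil2 and 1 in neil123. The zeros are limma counts. At an unadjusted p under 0.05 the counts were 1 in neil1 (9.18% of all genes) and 3 in neil3 (8.32%), EPHX2 among the latter. By edgeR 0 were called in both, and DESeq2 called 1 in neil1 (NQO1, with 0.74% of all genes) and 0 in neil3.

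The media libraries of neil1, at 3313 to 3549, and of neil2, at 2803 to 3454, all exceeded the unlettered wt libraries (2177 to 2455). The lettered wt range, 2416 to 3984, overlapped those of neil3 (3408 to 4450) and neil123 (3902 to 4761). Among names ending in A, wt held 3460 and 3984, below both neil3 libraries (4242 and 4450) and both neil123 libraries (4394 and 4761), and among names ending in B, wt held 2416 and 2943, below 3408 and 3657 in neil3 and 3902 and 4529 in neil123. With BSO the same held within each letter, with wt at 8229 and 8691 below 9069 to 9987 for A, and at 5936 and 6369 below 6948 to 8978 for B. In the unlettered set with BSO, neil1 (6335 to 7433) lay above wt (5452 to 6143) and neil2 (5846 to 6315) overlapped it.

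The neil2 call for NQO1 rested on line 11: without its 2 media and 2 BSO libraries the value was 0.23 (adjusted p = 0.71). It was also lost without library rep11.1 (0.38, adjusted p = 0.124), rep11.2 (0.38, adjusted p = 0.166) or wt 1.1 (0.38, adjusted p = 0.0862), without wt line 1.1 (0.35, adjusted p = 0.12) or wt p1 (0.45, adjusted p = 0.0551), and with no term for the label set (0.22, adjusted p = 0.276). The neil123 call was lost without wt line 1.1 (0.41, adjusted p = 0.0537) and without neil123 line 1 (0.42, adjusted p = 0.101). Marker sums moved beside these comparisons: in media the epithelial sum was 4966 to 10232 in neil2 and 3123 to 9794 in neil1 against 1980 to 3791 in wt, and the blood sum 123 to 289 in neil123 and 647 to 1267 in neil1 against 462 to 645 in wt. Their part in the NQO1, CBR1 and EPHX2 values was not tested. In neil1, leaving out wt 1.3A gave a call (0.56, adjusted p = 0.0248), and in neil3 no left-out library did (0.25 to 0.43).

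**Figure D4:**
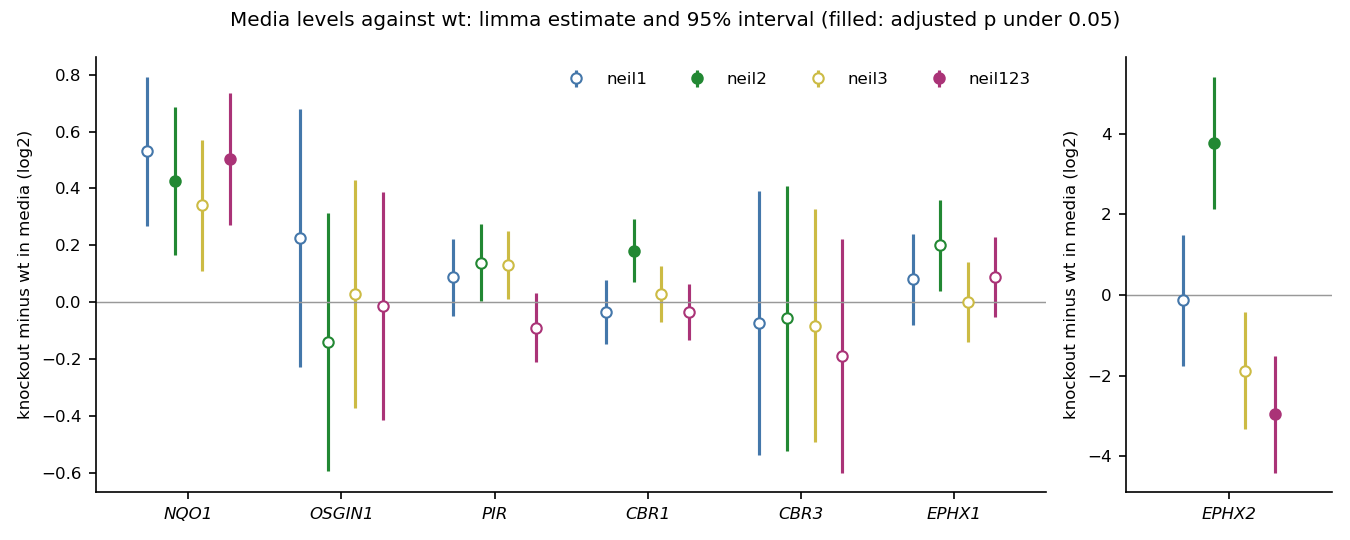
Log2 change of each gene between each knockout and wt in media (limma estimate with its 95% interval; filled points have an adjusted p under 0.05), with EPHX2 on a wider axis at the right. The NQO1 intervals of the 4 knockouts lie above 0, from 0.11 to 0.79, with neil2 and neil123 past the adjusted threshold. The EPHX2 points of neil2 and neil123 are descriptions, since neil2 line 11 let the gene through the filter.

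OSGIN1 and PIR, which rose with BSO beside NQO1, were not called in any knockout in media. OSGIN1 changes lay between -0.14 (neil2) and 0.23 (neil1), with SEs of 0.20 to 0.22, and the 95% interval held the value fitted for NQO1 in neil1 (-0.23 to 0.68) and neil3 (-0.37 to 0.43) and not in neil2 (-0.59 to 0.31) or neil123 (-0.42 to 0.39). The difference between the genes was not tested. PIR changes were 0.09 in neil1, 0.14 in neil2 (unadjusted p = 0.0443, adjusted p = 0.178), 0.13 in neil3 (unadjusted p = 0.0345, adjusted p = 0.542) and -0.09 in neil123. The 4 neil123 media libraries, 1318 to 1341, lay below the 4 lettered wt libraries, 1379 to 1470. EPHX1 was at 1847 to 1874 in the 3 neil2 media libraries, above the unlettered wt range of 1406 to 1722, with a change of 0.20 (SE 0.08, adjusted p = 0.0955). It passed against wt of its own label set alone (0.26, adjusted p = 0.0326) and with no term for the label set (0.31, adjusted p = 0.00917). CBR1 was called in neil2 (0.18, SE 0.06, adjusted p = 0.0292), where its 1460, 1479 and 1584 counts lay above 1279 to 1345 in unlettered wt. That call was lost without the media library wt 1.1, wt 1.3, neil2 rep11.2 or neil2 rep12 (adjusted p 0.0681 to 0.125), and without any one line of wt or neil2 (0.0511 to 0.188). CBR3 was not called, with changes of -0.19 to -0.06.

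EPHX2 encodes the soluble epoxide hydrolase, which turns fatty acid epoxides into diols, and lies on chromosome 8 at 27490779-27545564 (plus strand, ENSG00000120915). It was nearly silent in most libraries. Its mean over the 42 libraries was 22.7 normalized counts and 7.28 without neil2 line 11, so that it passed the filter through that line, and it was at 0 in 5 libraries. In wt media it stood at 2.88, 5.65 and 5.83 in the unlettered libraries (1.1, 1.3 and p1) and at 12.22, 11.13, 16.66 and 14.77 in the lettered ones (1.1A, 1.3A, 1.1B and 1.3B). The neil2 media libraries held 158 (rep11.1), 208.0 (rep11.2) and 27.1 (rep12), and the neil2 BSO libraries 147, 165 and 12.7. Line 11 thus stood far above line 12 with both treatments. The fitted media change in neil2 was 3.78 (SE 0.80), and it is given as a description, because line 11 let the gene through the filter. It was 3.23 without library rep11.2, 4.68 without line 12 and 1.98 without line 11 (adjusted p = 0.475, limma). In media, line 11 held 376 EPHX2 reads in 2 libraries against 15 in 3 unlettered wt libraries, a ratio of read shares of 37.6 (95% exact interval 22.5 to 67.8, counting error only), and line 12 held 28 reads in 1 library, a ratio of 5.58 (2.88 to 11.24). With BSO the ratio was 12.7 in line 11 (9.03 to 18.4, 313 reads against 37) and 1.05 in line 12 (0.510 to 2.01, 13 reads against 37), an interval that includes equal shares. The ratios of line 11 are descriptions too, since that line let the gene through the filter.

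In neil123 media EPHX2 stood at 0 (1A), 1.97 (2A), 0 (1B) and 1.02 (2B), below each lettered wt library, and with BSO at 0, 0.973, 1.04 and 6.03. The media libraries held 3 reads in all against 55 in the 4 lettered wt libraries, a ratio of read shares of 0.0546 (95% exact interval 0.0109 to 0.168), and the BSO libraries 8 against 56, a ratio of 0.141 (0.0580 to 0.297). The fitted media change, which depends on the pseudocount at such levels, was -2.96 (SE 0.71, adjusted p = 0.00595, limma). EPHX2 was in this test only because neil2 line 11 let it through the filter, so the value is given as a description. The neil123 media change was no longer called without wt line 1.1 (adjusted p = 0.0683), wt line 1.3 (0.0882) or neil123 line 1 (0.158). In neil3-labelled cells the media values were 9.05 (1A), 2.09 (2A), 0 (1B) and 2.92 (2B), with a change of -1.87 (SE 0.71, adjusted p = 0.403), and 14 reads against 55, a ratio of 0.256 (0.131 to 0.466). The libraries labelled neil1, at 11.21, 1.93 and 6.64 in media and 13.3, 0.976 and 2.86 with BSO, overlapped the unlettered wt libraries.

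NQO1 and OSGIN1 also differed with the last letter of the replicate name. In the 6 A and B pairs of wt, neil3 and neil123, NQO1 was higher in A in 6 of 6 pairs in media (0.07 to 0.52 on the log2 scale) and in 6 of 6 with BSO (0.15 to 0.55). A fit with a term for the letter, made after the values were seen, gave 0.32 (SE 0.04, adjusted p = 4.07e-06) for NQO1 and 0.52 (SE 0.08, adjusted p = 3.25e-05) for OSGIN1, and called 23.3% of all genes. PIR (0.05, adjusted p = 0.342), CBR1, CBR3, EPHX1 and EPHX2 were not called, though EPHX1 was lower in A in 6 of 6 media pairs. Between the label sets, lettered wt libraries were higher than unlettered ones for OSGIN1 (0.84), NQO1 (0.37) and PIR (0.20) and lower for CBR3 (-0.77), EPHX1 (-0.19) and CBR1 (-0.16), where 55.1% of all genes were called. What the letters and label sets stand for was not given in the sources used here, and each knockout is in 1 set alone. The fitted knockout changes draw on wt libraries of both sets through the term for the label set.

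NFE2L2, which encodes NRF2, was higher with BSO in 21 of 21 pairs (ratio 1.047 to 1.21) and was called in wt (0.15, SE 0.04, adjusted p = 0.00388) and neil3 (0.18, SE 0.05, adjusted p = 0.0176). KEAP1 was higher in 21 of 21 pairs too (ratio 1.01 to 1.21) and was called in wt (0.18, SE 0.04, adjusted p = 0.000476) and neil123 (0.17, SE 0.05, adjusted p = 0.0428). Of the 12 regulators listed, 5 rose and 2 fell in wt, where 13.5% of all genes were called. In neil1, neil2, neil3 and neil123, 1, 0, 3 and 2 rose (1.14%, 0.154%, 6.27% and 1.6% of all genes called). In neil2, 3 had an unadjusted p under 0.05 (8.12% of all genes), and edgeR and DESeq2 called 0. With the replicate block 3, 3, 8 and 5 were called in neil1, neil2, neil3 and neil123, where 7.64%, 5.76%, 20.4% and 8.86% of all genes were called. MAFG, a small MAF partner of NRF2, rose in wt (0.47), neil1 (0.59), neil3 (0.57) and neil123 (0.58), and MAFF rose in wt (0.35) and neil3 (0.47). In wt MAFK fell by 0.26 and CUL3, a subunit of the ligase that marks NRF2, fell by 0.11. In media neither NFE2L2 nor KEAP1 was called in a knockout, RBX1 was higher in neil2 (0.20), and in neil123 BACH2 was higher (1.045) and BTRC lower (-0.21).

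Of 36 other NRF2 targets, 34 were in the table and 32 were tested. With BSO 23 of 32 rose in wt (13.5% of all genes called), 12 in neil1 (1.14%) and 5 in neil2 (0.154%). In neil3 21 rose (6.27%) and in neil123 18 (1.6%), and none fell in any genotype. With the replicate block 20 were called in neil1 (7.64% of all genes) and 17 in neil2 (5.76%). The median change was 0.45 in wt, 0.40 in neil1, 0.28 in neil2, 0.44 in neil3 and 0.41 in neil123, with the median of all genes between -0.01 and 0.00. The list and the 7 genes were chosen with results of these libraries known, so these counts are no independent evidence of direction. HMOX1, the haem oxygenase, rose by 2.26 in wt, 2.14 in neil1, 1.58 in neil2, 2.35 in neil3 and 2.38 in neil123. SLC7A11, the cystine transporter, rose by 1.15 in wt and 0.92 in neil2, and FTH1, the ferritin heavy chain, by 0.99 and 0.80. AKR1C1 rose by 2.29 and AKR1C3 by 1.87 in wt, and AKR1C2 by 3.69 in neil3, but these near-identical copies can share reads, which makes their separate values uncertain. Among all 14331 genes NQO1 ranked 26th, OSGIN1 18th and PIR 166th by the size of the increase in wt.

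**Figure D5:**
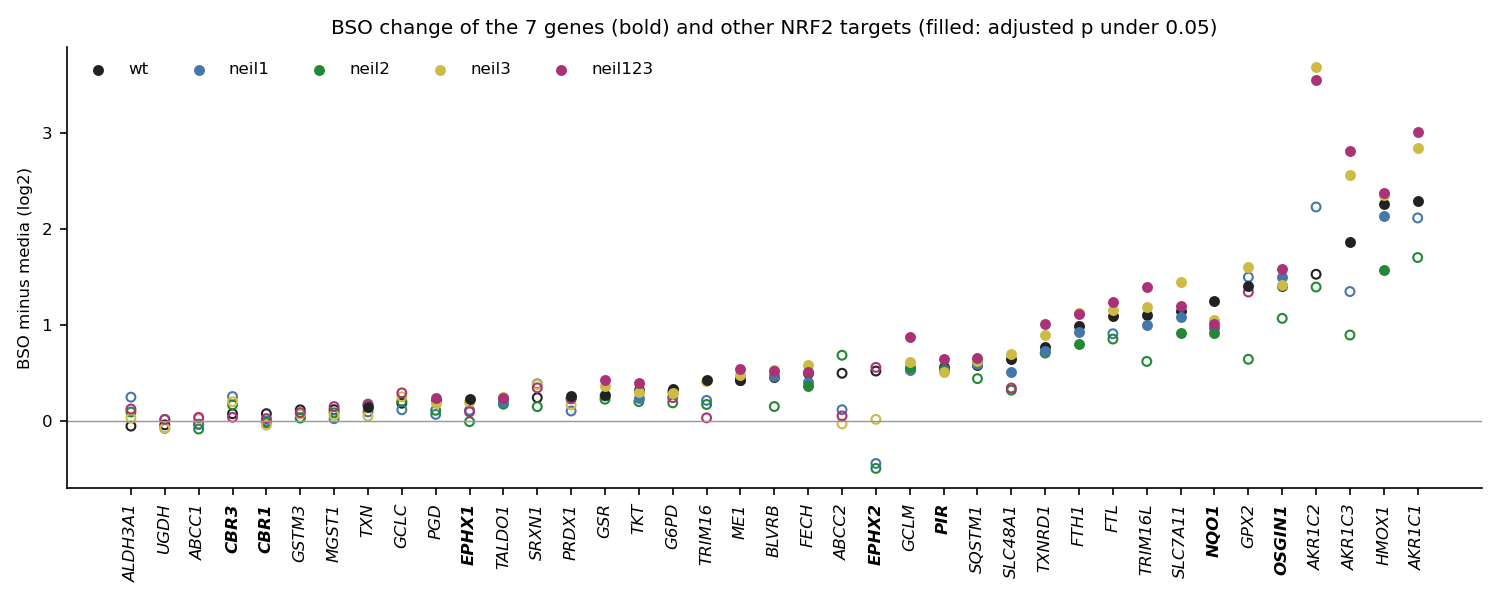
Log2 change with BSO (vertical) of the 7 genes (bold) and of 32 other NRF2 targets, ordered from left to right by the change in wt, with 1 point per genotype; filled points have an adjusted p under 0.05 (limma). The largest changes belong to the AKR1C copies and HMOX1 (2.26 in wt), and NQO1 and OSGIN1 lie next to SLC7A11 and GPX2, while CBR1 and CBR3 lie near 0.

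In media the same 32 genes held 1 increase and 1 decrease in neil123 by limma, where 7.67% of all genes were called. These were ME1 (0.43, adjusted p = 0.0439) and AKR1C3 (-2.09, adjusted p = 0.00319). None was called in neil1 (0.349% of all genes), neil2 (10.5%) or neil3 (0.579%). There 2, 2 and 1 had an unadjusted p under 0.05 (9.18%, 26.1% and 8.32% of all genes). By edgeR the calls were 0, 1 and 0 there and 3 in neil123, and by DESeq2 0, 2 and 0 and 3. With a term for the final letter 1 was called in neil2 (12.9% of all genes) and 4 in neil123 (9.62%). The median change of the list lay between -0.08 (neil123) and 0.10 (neil1).

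The called changes of enzymes with related substrates were small. Of 18 other quinone, carbonyl and epoxide enzymes tested, 5 rose and 1 fell with BSO in wt (13.5% of all genes called). In neil123 1 rose (1.6%), and none was called in neil1 (1.14%), neil2 (0.154%) or neil3 (6.27%) by limma. In these 3 genotypes 3, 1 and 5 had an unadjusted p under 0.05 (10%, 8.12% and 18.4% of all genes). There edgeR called 0, 0 and 1 and DESeq2 0, 1 and 1. The fit with the block called 1, 1 and 4 (7.64%, 5.76% and 20.4% of all genes). AIFM2, a CoQ oxidoreductase that protects against ferroptosis, rose by 0.28 in wt and 0.25 in neil123, AKR1B1 by 0.19 and NQO2, the paralogue of NQO1, by 0.18 in wt, where CRYZ fell by 0.18. In media AIFM2 (0.27), NQO2 (0.18) and AKR1A1 (0.17) were higher in neil2 and CRYZ was lower in neil123 (-0.27). Among 5 tested targets of the aryl hydrocarbon receptor, which also induces NQO1, 1 rose with BSO in wt (13.5% of all genes called) and 1 in neil3 (6.27%). In both it was SLC7A5 (0.50 and 0.51), an amino acid transporter. With the block 2, 1, 1, 2 and 1 were called in wt (31.6% of all genes), neil1 (7.64%), neil2 (5.76%), neil3 (20.4%) and neil123 (8.86%).

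Across the 42 libraries, after subtracting the wt mean of each label set, NQO1 correlated most with OSGIN1 (Pearson r = 0.93) and PIR (r = 0.88) among the 7, and OSGIN1 with PIR (r = 0.87). EPHX1 followed NQO1 less closely (r = 0.54), and CBR3 (r = 0.21), CBR1 (r = 0.09) and EPHX2 (r = -0.04) little. Among 11772 genes with a mean of at least 50, the 5 most like NQO1 were PANX2 (r = 0.96), a channel-forming pannexin, the ferritin pseudogene FTH1P2 (0.94), TXNRD1 (0.93), which encodes thioredoxin reductase, OSGIN1 (0.93) and ASAH1 (0.92), which encodes acid ceramidase. FTH1P2 can take reads of FTH1. PANX2 went from a mean of 880.3 in wt media to 1684 in wt BSO, and ASAH1 from 1552 to 1889. The genes most like the others were GCLM for OSGIN1 (0.96), HMOX1 for PIR (0.92), NIT2 for CBR1 (0.66), CDADC1 for CBR3 (0.64), SLC2A8 for EPHX1 (0.83) and GCNT2 for EPHX2 (0.87). Points in these correlations share the BSO contrast and, within pairs, the replicate, so they describe these libraries and have no p.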

How the data were processed

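Total RNA was sequenced from 42 HAP1 libraries in 10 groups of genotype and treatment. Per the submitters' processing notes, Trim Galore, HISAT2, SAMtools, featureCounts and DESeq2 were used with GRCh38/hg38. Their order, versions, strand setting and annotation were not given in the sources used here. The authors deposited 1 table of normalized counts, a signal in which a library's value of 1 read was 0.941 to 1.04, with 30182 entries, of which 9667 have no symbol and were left out (0.868% to 1.25% of reads). Dividing by that step gave whole reads for 100% of values (tolerance 1e-06).

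The main test was limma 3.58.1 (trend) in R 4.3.3 on log2(value + 1), for genes with a mean of at least 10, in 1 fit of all 42 libraries with a term per group and for the label set, and Benjamini-Hochberg adjustment over 14331 genes at 0.05. Fold changes on this scale understate low genes. edgeR 4.0.16 (quasi-likelihood) and DESeq2 1.42.0 were run on the whole reads, edgeR calling for instance 2057 genes with BSO in wt against 1938 by limma. The fit was tested on simulated data. Other pseudocounts and filters, no label-set term, equal totals, line means, left-out libraries and lines, and the replicate name as a block were tried. In media comparisons, where each pair lies within a genotype, a term for the final letter took the place of the block.

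Replicate names pair BSO with media: the deviations of all 21 pairs from their group means correlated (r = 0.375 to 0.849 across genes, and 0.193 to 0.849 from means of group and label set). The 7 genes and all lists were chosen with earlier results of these data known. Named were the 7, NFE2L2 and KEAP1, up to 4 called genes with the largest change per list and comparison, and the genes with the highest r. Exact intervals cover counting error only.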

Additional observations from a re-analysis of the deposited data

Results flagged for a closer look

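CBR1 in the neil3 BSO library 2B (1122 normalized counts) stood apart from the other 3 libraries of its group, which lay between 1197 and 1208, with a gap of 0.862 of the group's range. In 42 such checks 1 was past the limit, and chance passes about 1 in 20.

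The NQO1 response to BSO was smaller in neil2 than in wt by -0.33 on the log2 scale in the fit with the replicate block (limma, adjusted p = 0.0305). Without the block the same difference had an adjusted p of 0.9999. The wt pairs with unlettered names had ratios of 2.40 to 2.55, and the 3 neil2 pairs 1.75 to 2.09. The fit used all 7 wt pairs, and the lettered wt pairs 1.3A (2.07) and 1.3B (2.16) reach or lie near the neil2 range. Without neil2 line 11 and without the block, the difference was -0.19.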

How the results depend on the processing

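No called value of the 7 genes changed sign: of 2703 alternative values 2650 kept their side of the threshold, 39 lost it and 14 gained it, and 142 changes of sign were all in values not called. In media, the fit with a term for the final letter called NQO1 in neil1 (0.53, 1 member) and neil3 (0.34, 1 member). With the replicate block NQO1 was called for the difference in neil2 (-0.33, 1 member), and OSGIN1 in neil2 and EPHX1 in neil3 with BSO. Neither fit changed any other call of the 7. In neil1 media, DESeq2 (0.52, 1 member) and line means (0.52, 1 member) also called NQO1. Fitted on the compared groups alone, with fewer libraries to estimate the spread, NQO1 lost the call in neil2 in media (0.46) and with BSO (0.91, 0 members), and neil1 kept 1 member with BSO. CBR1 in neil2 media also lost its call there (0.21, adjusted p = 0.0719, limma), so the 1 member left was EPHX2. With columns scaled to equal totals CBR1 in neil2 media was not called either (0.17, adjusted p = 0.0536, limma). With no label-set term NQO1 was 0.22 in neil2, not called, and 0.50 in neil3, called (1 member). EPHX1 in neil2 media was called with no label-set term (0.31) and against wt of its own set alone (0.26). The filter at 50 removed EPHX2, and it and line means left 1 member in neil123 media. Causes of the other changes were not tested.

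Leaving out libraries or lines moved NQO1 in media to 0.45 to 0.59 in neil1, 0.23 to 0.53 in neil2, 0.25 to 0.43 in neil3 and 0.41 to 0.60 in neil123 (members called 0 to 1, 0 to 3, 0 to 0 and 0 to 2). With BSO it moved to 1.18 to 1.31 in wt, 0.91 to 1.02 in neil1, 0.81 to 1.06 in neil2, 0.99 to 1.13 in neil3 and 0.96 to 1.09 in neil123 (members called 3 to 4, 0 to 3, 0 to 2, 3 to 3 and 3 to 3). A fit that leaves 1 library in an arm assumes that it varies like the other groups. With 3 or 4 libraries per knockout, the intervals of the NQO1 differences in response reached from -0.67 to 0.12, and EPHX2 rests on 968 reads in all.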
